A study of Canis lupus familiaris with 29 samples.

Results

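The oxidative phosphorylation gene set was followed over all groups of an array study of dog kidney cells. A gene was taken where a probe set carried its symbol alone and the symbol began with NDUFA, NDUFB, NDUFC, NDUFS, NDUFV, UQCR, ATP5 or COX with a digit from 4 to 8, or was CYC1, SDHA, SDHB, SDHC or SDHD. The symbols matched 71 genes of the 15115 that the platform's annotation names singly, and 67 of them reached a log2 level of 5 in at least 3 of the 29 arrays and were tested, each by its probe set with the highest mean. The 4 others, COX4I2, COX6A2, COX7A1 and NDUFA4L2, stayed below 5 in every array, with highest values of 3.16, 4.52, 2.38 and 2.21. The name patterns gave 41 genes for complex I, 4 for complex II, 8 for complex III, 4 for complex IV and 10 for complex V. Of the 67 genes, 57 encode subunits. The patterns also brought in 7 complex I assembly factors (NDUFAF1 to NDUFAF7), NDUFA4, which was first described in complex I and is now counted with complex IV, COX7A2L, which joins respiratory complexes into supercomplexes, and ATP5IF1, the inhibitor of the ATP synthase. COX5A, COX6A1, COX6B1, COX6C, COX7A2, COX7B and COX7C of complex IV and UQCRB of complex III were not analysed. They have no probe set of their own symbol alone in the annotation used here. The 4 genes counted for complex IV are COX4I1, COX5B, COX8A and COX7A2L, so counts for this complex leave out many of its subunits.

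Oxidative phosphorylation takes place in the inner mitochondrial membrane, where complex I takes electrons from NADH and complex II takes them from succinate. Complex III passes them to cytochrome c, complex IV passes them on to oxygen, and complex V uses the proton gradient that builds up to make ATP. Most subunits are encoded in the nucleus and imported, a core of them is encoded by mitochondrial DNA, and kidney tubule cells are rich in mitochondria because salt transport is costly in ATP.

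The cells were MDCK, an established dog kidney epithelial line, cultured on transwell filters (2D) or within collagen (3D). In each culture the groups were an untreated control (4 arrays), cells with hepatocyte growth factor (HGF, 4 arrays), and cells with HGF plus an inhibitor of MEK, the kinase above ERK. The inhibitors were PD-98059 (4 arrays in 2D, 3 arrays in 3D) and U0126 (3 arrays for each culture). The sources used here give no dose or exposure time. Nothing says whether a group's arrays came from separate cultures, so the p-values cover array-to-array spread alone, and that spread may be technical. Levels are log2 values, differences between groups are log2 differences ± the standard error (SE) of limma's model, and a gene rose or fell where limma's two-sided test gave a Benjamini-Hochberg adjusted p under 0.05 over 16571 tested probe sets. In bulk RNA, fewer cells with a transcript and less of it per cell cannot be told apart.

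Of 11 kidney epithelial markers named on the platform, 8 reached a log2 level of 5, with CDH16, EPCAM and KRT8 far above it, whereas CDH1, PAX2 and PAX8 were below 5 in every array. All 8 fibroblast and all 4 endothelial markers were below 5 throughout, as were 4 of 5 leukocyte markers, and CD68 was the exception with group means from 2.78 to 5.77. The 3D HGF arrays were the least alike, with a lowest correlation between arrays over all tested probe sets of 0.964 against at least 0.987 in the other groups, and replicate 1 lay farthest from its group mean. An RNA-quality index, the mean log2 excess of 3′ over 5′ (for one gene, middle) signal in control transcripts, also differed between groups and is given beside the 2D results. No mitochondrially encoded subunit is named on the platform (0 of 26 names searched), so only the nuclear genes of the complexes were measured.

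**Figure D1:**
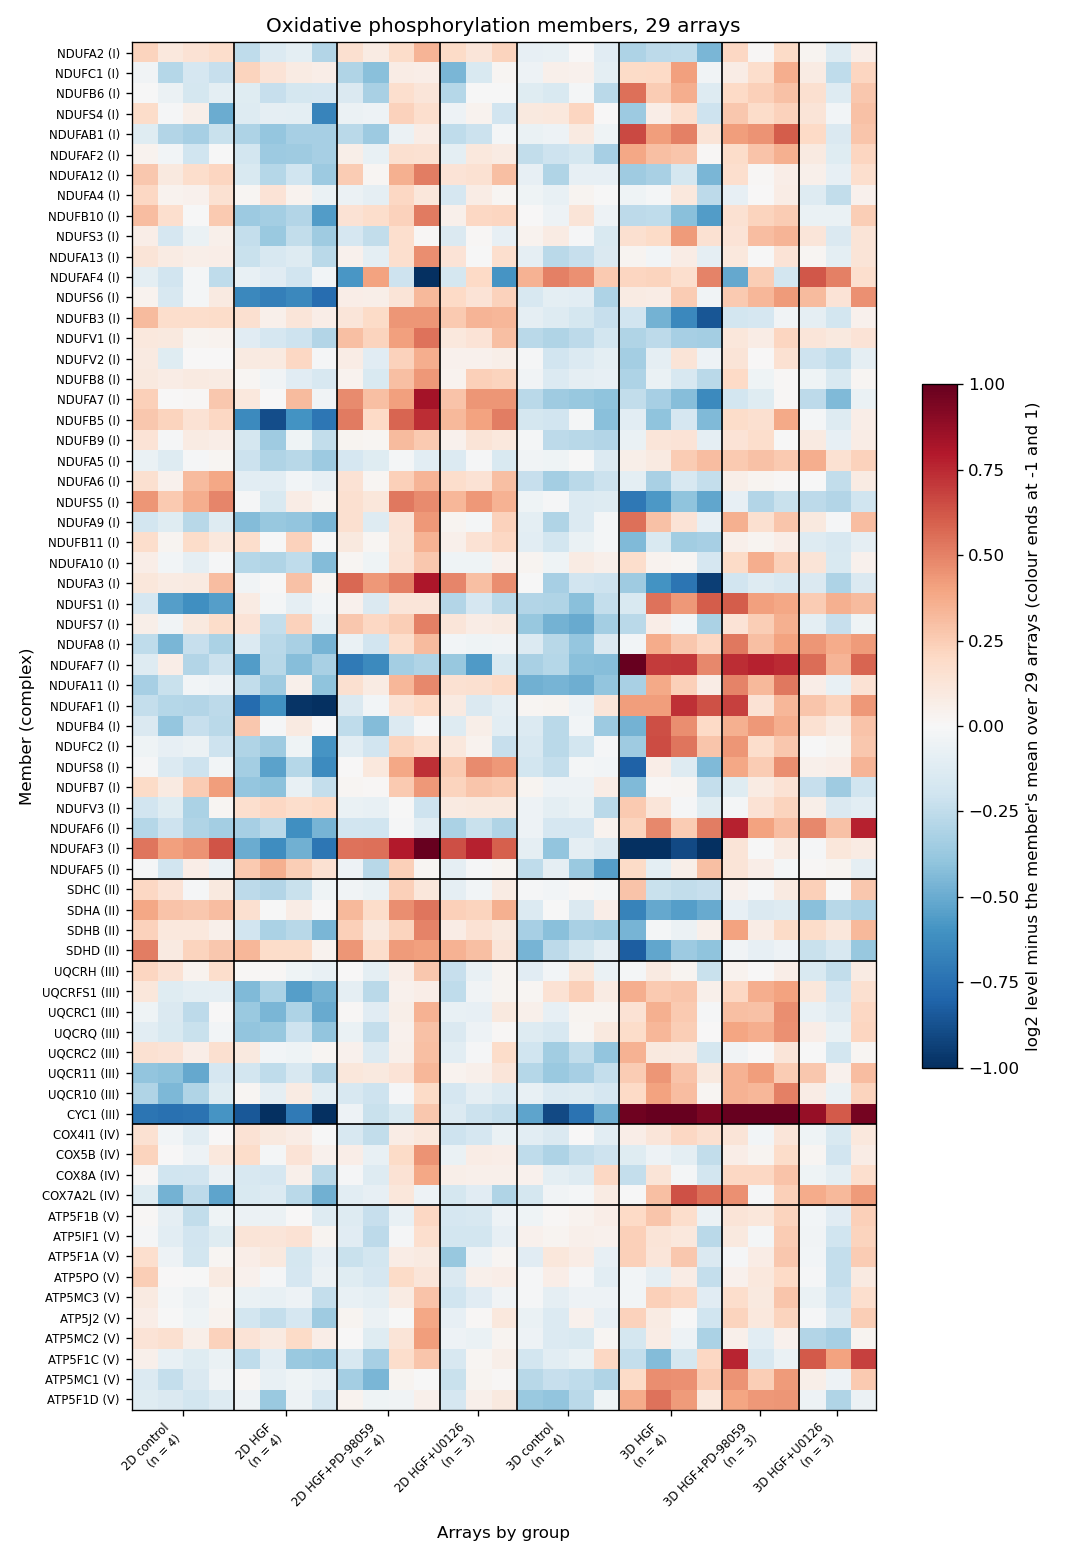
Log2 level of each of the 67 genes in each of the 29 arrays, shown as colour relative to the gene's own mean over all arrays, with genes in rows by complex and arrays in columns by group. CYC1 is low in both controls and in 2D HGF, near its mean in 2D with either inhibitor and high in the 3D groups with HGF, NDUFAF3 is low in both HGF groups, and most genes of complexes IV and V vary little.

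The genes of the set moved less between groups than most tested transcripts. The range between the highest and the lowest of the 8 group means had a median of 0.62 over the 67 genes against 1.14 over all tested probe sets, and it was over 1 for 7 genes (10.4%) against 57.3% of all tested probe sets. Those 7 were CYC1, NDUFAF3, NDUFAF1, NDUFAF7, NDUFA3, NDUFB5 and NDUFS6. The median signal was 12.3 over the set and 8.50 over all tested probe sets, and the part of signal strength in the range was not tested. The widest range was that of CYC1 (2.09), which encodes cytochrome c1, a haem subunit of complex III. In complex I it was that of the assembly factor NDUFAF3 (1.79), in complex II that of SDHA (0.94), in complex IV that of COX7A2L (0.72) and in complex V that of ATP5F1C (0.85). The narrowest were ATP5PO (0.19), part of the stalk of the ATP synthase, and NDUFA4 (0.22). The highest group mean was that of 3D HGF with PD-98059 for 28 genes and that of 2D HGF with PD-98059 for 17. The lowest was that of 2D HGF for 25 genes, of 3D HGF for 13 and of 3D control for 10. These counts were not made over all tested probe sets. Median centring moved the median difference of all tested probe sets, PD-98059 with HGF against HGF, by -0.13 in 3D and -0.05 in 2D. The effect of scaling on the counts was not tested.

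In cells within collagen, more genes of the set rose with HGF than fell, and CYC1 rose most. Of the 67 genes 28 rose (41.8%, against 29.4% of all tested probe sets) and 9 fell (13.4% against 32.6%), and in all 62.1% of tested probe sets passed. The median difference was 0.13, beside -0.0025 for all tested probe sets. By complex, 18 rose and 7 fell among the 41 of complex I, 1 rose and 2 fell in complex II, 5 of 8 rose in complex III, 2 of 4 in complex IV and 2 of 10 in complex V, with none falling in the last 3. Of the 7 complex I assembly factors 5 rose and 1 fell, with a median of 0.46. Among the 34 other genes of complex I 13 rose (38.2%) and 6 fell (17.6%), with a median of only 0.04. Of the 57 subunits of all complexes 22 rose (38.6%) and 8 fell (14%).

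CYC1 had log2 levels of 10.15, 9.78, 9.94 and 10.19 in the 3D control arrays and 11.65, 11.96, 11.86 and 11.62 in the 3D HGF arrays. Every HGF array was well above every control array. The difference was 1.76 ± 0.118, a 3.38-fold rise, with limma adjusted p = 1.57e-12. The other genes of complex III that rose were UQCR11 (0.58 ± 0.079), UQCRC2 (0.39 ± 0.092), UQCR10 (0.36 ± 0.088) and UQCRQ (0.24), which are small or core subunits of the same dimer. UQCRQ was lost in 5 alternatives, with adjusted p up to 0.0997 (without 3D HGF replicate 2), and the value of UQCR11 was 0.91 when all its probe sets were averaged. The iron-sulfur protein UQCRFS1, the core protein UQCRC1 and the hinge protein UQCRH did not pass.

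In complex I the largest rise was that of NDUFAF7, a methyltransferase that acts in complex I assembly. It read 10.19, 10.23, 10.10 and 10.09 in the 3D control and 11.59, 11.21, 11.22 and 10.99 with HGF. The groups were apart, and replicate 1 was the highest of the HGF arrays. The difference was 1.1 ± 0.115, or 2.15-fold, with limma adjusted p = 5.43e-09. The core subunit NDUFS1, which carries iron-sulfur clusters, rose by 0.67 ± 0.118. NDUFA11, an accessory subunit of the membrane arm, rose by 0.55 ± 0.119, and its HGF arrays of 10.15, 10.86, 10.72 and 10.55 were all above the controls at 9.99 to 10.08. The assembly factors NDUFAF1 (0.52 ± 0.107), NDUFAF2 (0.49 ± 0.082) and NDUFAF6 (0.46 ± 0.106) rose as well, and NDUFAF2 reached 0.80 when its probe sets were averaged.

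NDUFAF3, an assembly factor that works together with NDUFAF4, went the other way. Its levels were 8.48, 8.18, 8.48 and 8.43 in the 3D control and 7.36, 7.43, 7.67 and 7.56 with HGF. No HGF array reached the lowest control. The difference was -0.89 ± 0.099, a 1.85-fold fall, with limma adjusted p = 2.09e-08. The accessory subunits NDUFA3 (-0.47 ± 0.104), NDUFS5 (-0.47 ± 0.085) and NDUFB10 (-0.38 ± 0.092) also fell.

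In complex II the 4 genes did not move together. SDHA, the flavoprotein that oxidises succinate, read 11.99, 12.13, 11.99 and 12.20 in the 3D control and 11.47, 11.62, 11.58 and 11.63 with HGF. All HGF arrays were below all controls, and the difference was -0.50 ± 0.070 (limma adjusted p = 6.43e-07). SDHB, the iron-sulfur subunit, read 11.15, 11.06, 11.15 and 11.13 in the control against 11.01, 11.45, 11.42 and 11.53. HGF replicate 1 lay below all controls and the other 3 above them. SDHB passed with 0.23 ± 0.096 (adjusted p = 0.0398), a call that was lost in 10 of the alternatives, with adjusted p up to 0.143. SDHD, a membrane anchor, passed with -0.28 ± 0.109, was lost in 8 alternatives and was -0.18 without HGF replicate 1. SDHC, the other anchor, did not pass. Its HGF arrays were 12.67, 12.15, 12.13 and 12.15, with replicate 1 above and the others below the controls at 12.35 to 12.39.

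In complex IV 2 of 4 genes passed with HGF in 3D, and in complex V 2 of 10. ATP5F1A and ATP5F1B, the alpha and beta subunits of the catalytic head, did not pass for HGF in either culture. The array values of ATP5F1B in 3D were 14.84, 14.90, 14.92 and 14.96 in the control and 15.08, 15.16, 15.06 and 14.83 with HGF, so the groups overlapped. In complex V the subunits that rose were ATP5F1D (0.63 ± 0.094), the delta subunit of the central stalk, and ATP5MC1 (0.61 ± 0.094), one of 3 genes for the membrane ring. ATP5F1D read 9.20, 9.18, 9.30 and 9.53 in the control and 9.94, 10.11, 9.996 and 9.68 with HGF. ATP5MC1 read 12.20, 12.25, 12.23 and 12.18 against 12.67, 12.95, 12.94 and 12.74. In both the groups were apart, with limma adjusted p = 2.14e-06 and 3.62e-06. In complex IV, COX4I1, a regulatory subunit, rose by 0.23 ± 0.074, and COX7A2L rose by 0.41 ± 0.120, or by 0.62 with its probe sets averaged.

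In cells on filters the balance was reversed, and most genes of the set that changed with HGF fell. Of the 67 genes 6 rose (8.96%, against 26.3% of all tested probe sets) and 26 fell (38.8% against 29.2%; 55.4% of all tested probe sets passed), with a median difference of -0.14 beside -0.03 for all. In complex I, 18 of 41 fell and 5 rose. Of its 7 assembly factors 3 fell and 1 rose, and of its 34 other genes 15 fell and 4 rose. In complex II, 3 of 4 fell, in complex III 4 of 8 fell and 1 rose, in complex V 1 of 10 fell, and none of the 4 in complex IV passed.

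NDUFAF3 read 9.11, 8.98, 9.02 and 9.20 in the 2D control and 8.08, 7.95, 8.09 and 7.85 with HGF. The groups did not overlap, and the difference was -1.08 ± 0.099 (limma adjusted p = 7.3e-10). NDUFB5, an accessory subunit of the membrane arm, fell from 12.37, 12.31, 12.24 and 12.30 to 11.46, 11.21, 11.49 and 11.37. Every HGF array was again below every control, with a difference of -0.92 ± 0.101, or 1.90-fold, and limma adjusted p = 1.65e-08. NDUFS6, a zinc-binding subunit near the NADH site, read 12.43, 12.23, 12.38 and 12.49 and then 11.75, 11.71, 11.75 and 11.63. It fell by 0.67 on the log2 scale (SE 0.078, limma adjusted p = 4.57e-08), with no overlap.

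NDUFAF1, which read 10.21, 10.17, 10.16 and 10.19 in the 2D control, was at 9.69, 9.85, 9.48 and 9.44 with HGF. The arrays did not overlap, and the difference was -0.57 ± 0.107. NDUFB10 (-0.57 ± 0.092), NDUFB7 (-0.52 ± 0.107) and NDUFA12 (-0.44 ± 0.086), all accessory subunits, also fell. In complex II SDHB fell by 0.44 (SE 0.096), from 11.71, 11.58, 11.58 and 11.53 to 11.28, 11.16, 11.19 and 11.02, again without overlap. SDHA (-0.25 ± 0.070) and SDHC (-0.31 ± 0.096) fell with it. In complex III UQCRFS1 fell by 0.40 (SE 0.089) and UQCRC1 by 0.30 (SE 0.092). CYC1 passed with -0.28 ± 0.118, but its HGF arrays of 9.83, 9.46, 9.97 and 9.53 overlapped the controls at 9.93 to 10.09, and the call was lost in 11 alternatives, with adjusted p = 0.180 without 2D HGF replicate 2.

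The genes that rose in 2D were NDUFS1 (0.46 ± 0.118), NDUFB4 (0.35), NDUFV3 (0.34 ± 0.086), NDUFC1 (0.31), NDUFAF5 (0.30) and UQCR10 (0.27). NDUFV3, a small subunit of the NADH-oxidising module, passed in every alternative other than the 2-fold threshold. The rest did not, and with the probe sets of a gene averaged NDUFC1 turned to -0.052 and NDUFS1 was at 0.08 (adjusted p = 0.696).

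The RNA-quality index moved with HGF in 2D. It was 1.44 ± 0.10 in the 2D control and 0.838 ± 0.048 with HGF (SD, n = 4 each), and 1.36 ± 0.061 (SD, n = 4) with PD-98059 and 1.31 ± 0.134 (SD, n = 3) with U0126 added. In 3D it was 1.93 ± 0.238 in the control, 1.68 ± 0.583 with HGF (SD, n = 4 each), 1.65 ± 0.025 with PD-98059 and 1.61 ± 0.136 with U0126 (SD, n = 3 each). The ACTB component of the index went from 3.52 to 1.77 with HGF in 2D and the GAPDH component from 0.53 to 0.36. The EEF1A1 component went the other way, from 0.26 to 0.39. In 3D ACTB went from 3.57 to 2.91, GAPDH from 1.14 to 0.87 and EEF1A1 from 1.09 to 1.25. What the index contributes to the differences of the gene set was not tested. With the index as a covariate 5 genes rose and 19 fell with HGF in 2D. SDHC (-0.10, adjusted p = 0.398) and UQCRC1 (adjusted p = 0.10) no longer passed, and NDUFB5 passed in every alternative other than the 2-fold threshold.

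**Figure D2:**
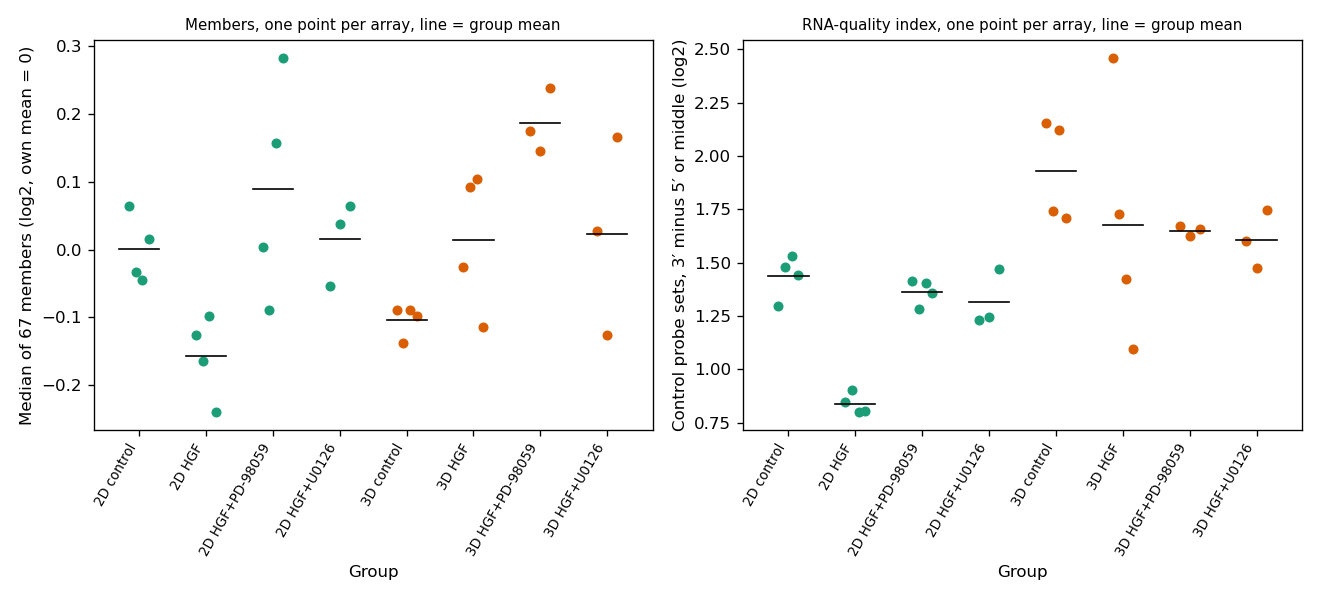
Left, the median over the 67 genes of each array's log2 level relative to the gene's own mean; right, the RNA-quality index in log2 units; points are arrays, lines are group means, green is 2D and orange is 3D. In 2D both are lowest with HGF, whereas in 3D the controls have the lowest members' median (mean -0.10) and the highest mean index (1.93).

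Whether HGF acted on these genes alike in both cultures was tested by the difference of the HGF effect, 3D minus 2D. It was positive and passed for 29 of 67 genes (43.3%, against 22% of all tested probe sets) and negative and passed for 2 (2.99% against 26.3%; 48.3% of all passed), with a median of 0.22 beside -0.02 for all. Complex I gave 19 of the positive and 1 of the negative differences, complex II 1 of each, complex III 6 positive and complex V 3 positive, and complex IV none. In complex I 4 of the 7 assembly factors were positive, and of the 34 other genes 15 were positive and 1 was negative. The 3D and 2D HGF comparisons share no arrays. In 9 genes (13.4%, against 3.15% of all tested probe sets) HGF lowered the level in 2D and raised it in 3D, and in none (against 3.69%) did it do the reverse. The 9 were NDUFA5, NDUFAF1, NDUFAF2, NDUFB9, NDUFS3, NDUFS6, SDHB, CYC1 and UQCRQ. The 2D calls of CYC1, UQCRQ and NDUFAF2 and the 3D calls of NDUFB9, NDUFS3, SDHB and UQCRQ were lost in at least 1 alternative.

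CYC1 had the largest such difference, 2.04 ± 0.167 (limma adjusted p = 2.77e-10), followed by NDUFAF7 (1.36 ± 0.162), NDUFAF1 (1.09 ± 0.152), NDUFS6 (0.93 ± 0.110) and NDUFB5 (0.85 ± 0.143). For NDUFAF1 the 3D HGF arrays of 10.87, 10.87, 11.19 and 11.09 were above the 3D controls at 10.40 to 10.58, and the 2D HGF arrays were below the 2D controls. The same held for NDUFS6, whose 3D arrays went from 12.24, 12.30, 12.29 and 12.09 to 12.48, 12.47, 12.65 and 12.36. For NDUFB5 the 3D arrays of both groups overlapped, 11.92, 11.90, 12.07 and 11.68 against 11.99, 11.69, 11.93 and 11.65, so its difference rests on the fall in 2D. NDUFAF7 was the other case, with 2D arrays that overlapped at their edges (10.22 to 10.58 in the control and 9.95 to 10.24 with HGF) and a rise in 3D.

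Outside complex I, SDHB (0.67 ± 0.136), ATP5F1D (0.65 ± 0.133), UQCRFS1 (0.51 ± 0.125), ATP5MC1 (0.51 ± 0.132), UQCRC2 (0.51 ± 0.130) and UQCRC1 (0.48 ± 0.130) also differed between cultures. The negative differences were those of NDUFA3 (-0.39 ± 0.147, adjusted p = 0.0304) and SDHA (-0.25 ± 0.098, adjusted p = 0.0371). Both were lost in 10 or more alternatives, with adjusted p up to 0.0807 and 0.092. The genes that fell with HGF in both cultures were the 5 genes NDUFA2, NDUFAF3, NDUFB10, NDUFS5 and SDHA (7.46%, against 18.2% of all tested probe sets). The 4 that rose in both were NDUFAF5, NDUFB4, NDUFS1 and UQCR10 (5.97% against 14.6%). In 3D NDUFB4 did not pass without HGF replicate 2 (limma adjusted p = 0.121), and its HGF replicate 1, at 9.86, was below all controls. NDUFAF5 was at 0.21 in 3D with its probe sets averaged (limma adjusted p = 0.247).

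**Figure D3:**
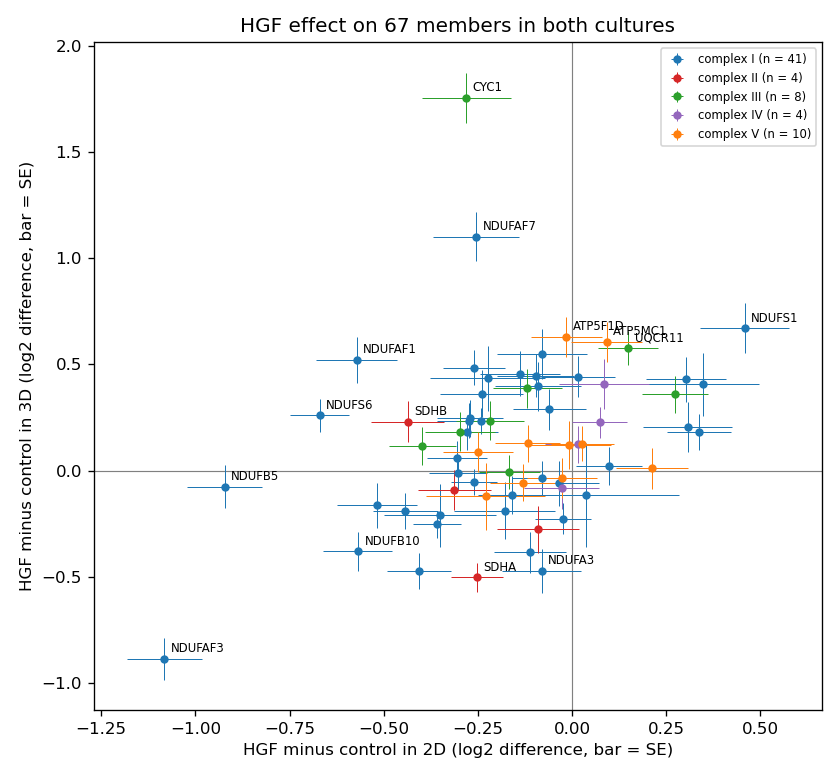
HGF minus control in 2D (x axis) against HGF minus control in 3D (y axis), as log2 differences with SE bars, one point per gene, coloured by complex. CYC1 lies alone at the top at -0.28 and 1.76, NDUFAF3 at the lower left at -1.08 and -0.89, and NDUFS6 at -0.67 and 0.26.

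**Figure D4:**
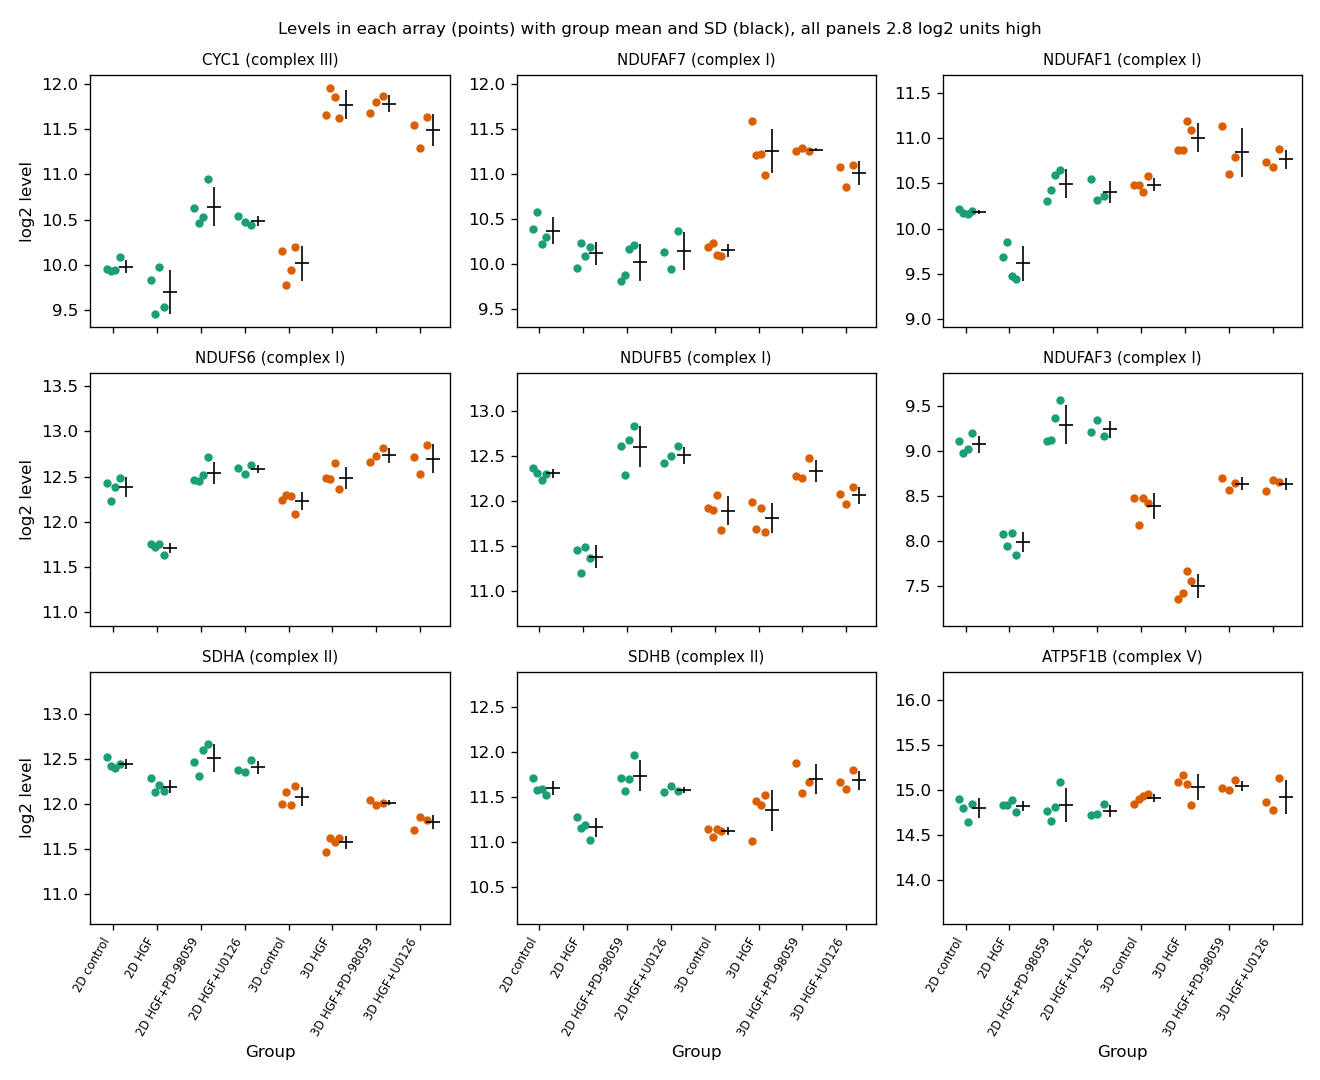
Log2 levels of 9 genes in each array (points, green 2D and orange 3D) with the group mean and SD in black, all panels spanning the same height. CYC1 rises in all 3D groups with HGF, NDUFAF3 drops with HGF and returns with either inhibitor in both cultures, and ATP5F1B stays between 14.64 and 15.16 in all arrays.

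The untreated cultures were compared next, which differ in both substrate and geometry, and in the RNA-quality index (mean 1.44 in 2D and 1.93 in 3D). Of the 67 genes 2 were higher in 3D (2.99%, against 23.6% of all tested probe sets) and 22 were lower (32.8% against 28.7%; 52.3% of all passed), with a median difference of -0.10 beside -0.03 for all. Complex I held 16 of the lower genes, complex II 3 of its 4. The split changed with scaling, to 9 higher and 18 lower with each array centred on its median and to 8 and 24 after quantile normalization.

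NDUFAF3 was the lowest in 3D relative to 2D, with -0.68 ± 0.099 (limma adjusted p = 2.61e-06) and no overlap of arrays. SDHD read 8.52, 8.10, 8.23 and 8.28 in 2D and 7.55, 7.74, 7.83 and 7.92 in 3D. The cultures were apart, with -0.52 ± 0.109, or -0.34 with the RNA-quality index as a covariate. SDHB (-0.48 ± 0.096) and SDHA (-0.37 ± 0.070) were lower too, as were NDUFS7 (-0.50 ± 0.096), a core subunit near the quinone site, and the accessory subunits NDUFA6 (-0.49 ± 0.079), NDUFA7 (-0.48 ± 0.107) and NDUFS5 (-0.47 ± 0.085). In complex IV COX5B was lower by -0.32 ± 0.086. The higher genes were COX7A2L (0.31 ± 0.120) and NDUFAF1 (0.30 ± 0.107). COX7A2L was at 0.06 with its probe sets averaged, and NDUFAF1 did not pass without 3D control replicate 4 (adjusted p = 0.0608).

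With HGF present the cultures differed in the other direction. In 3D 29 of 67 genes were higher (43.3%, against 28.9% of all tested probe sets) and 10 were lower (14.9% against 35.7%; 64.6% of all passed), with a median of 0.14 beside -0.04 for all. This comparison shares its HGF arrays with both HGF comparisons. CYC1 was 4.21-fold higher in 3D (2.07 ± 0.118, limma adjusted p = 5.89e-14). NDUFAF1 (1.39 ± 0.107), NDUFAF7 (1.14 ± 0.115), NDUFAF6 (0.79 ± 0.106) and NDUFS6 (0.78 ± 0.078) followed. Of the 7 complex I assembly factors 4 were higher in 3D, NDUFAF3 was lower (-0.49 ± 0.099), and NDUFAF4 and NDUFAF5 did not pass. In complex III UQCRFS1 (0.68 ± 0.089) and UQCRC1 (0.60 ± 0.092) were higher in 3D, at 14.82, 14.72, 14.73 and 14.50 for UQCRFS1 against 14.02, 14.14, 13.90 and 13.98 in 2D. NDUFA3 (-0.72 ± 0.104), SDHD (-0.71 ± 0.109), NDUFB3 (-0.64 ± 0.096) and SDHA (-0.62 ± 0.070) were lower. With the RNA-quality index as a covariate SDHD was at -0.40, and 21 genes were higher and 11 lower.

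The inhibitor comparisons ask what MEK inhibition changed in cells that also had HGF, and each uses the HGF arrays of its culture, which the HGF comparisons use too. In 2D PD-98059 raised 35 of 67 genes (52.2%, against 27.6% of all tested probe sets) and lowered 2 (2.99% against 24.9%; 52.4% of all passed), and U0126 raised 32 (47.8% against 25.8%) and lowered 4 (5.97% against 24.3%; 50.1% of all passed). The medians were 0.27 and 0.21 beside 0.03 and 0.02 for all. Of complex I 26 genes rose with PD-98059 and 24 with U0126, of complex II 3 and 2, of complex III 5 with each, of complex V 1 with each and of complex IV none.

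NDUFAF3 reached 9.11, 9.12, 9.36 and 9.57 with PD-98059 and 9.21, 9.34 and 9.17 with U0126. All 7 arrays were above the 2D HGF arrays, and none was below the lowest 2D control. It rose by 1.30 ± 0.099 with PD-98059 and by 1.25 ± 0.107 with U0126 (limma adjusted p = 2.49e-11 and 2.84e-10). NDUFB5 rose by 1.22 ± 0.101 and 1.12 ± 0.109, to 12.61, 12.29, 12.68 and 12.83 and to 12.42, 12.49 and 12.61. These too were above every HGF array.

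CYC1, which HGF alone left at 9.46 to 9.97 in 2D, was at 10.63, 10.46, 10.53 and 10.95 with PD-98059 and at 10.54, 10.47 and 10.44 with U0126. These arrays were above those of HGF alone and above the 2D controls, whose highest was 10.09. It rose by 0.94 ± 0.118 and 0.79 ± 0.128. NDUFAF1 (0.88 ± 0.107 and 0.79 ± 0.116) and NDUFS6 (0.83 ± 0.078 and 0.87 ± 0.084) rose with both compounds. So did NDUFS8 (0.75 ± 0.148 and 0.84 ± 0.160), a core subunit with iron-sulfur clusters, and NDUFV1 (0.56 ± 0.062 and 0.37), the subunit that binds NADH. In complex II SDHB rose by 0.58 ± 0.096 and 0.42 ± 0.104, and in complex III UQCRC1 rose by 0.49 ± 0.092 and 0.39 ± 0.10.

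The genes that PD-98059 lowered in 2D were NDUFV3 (-0.28 ± 0.086) and NDUFAF5 (-0.27), the second lost in 9 alternatives. Those that U0126 lowered were NDUFC1 (-0.32), NDUFAF5 (-0.28), ATP5IF1 (-0.26) and COX4I1 (-0.23 ± 0.079), and none of these 4 passed without 2D HGF replicate 1. With the RNA-quality index as a covariate 34 genes rose and 4 fell with PD-98059, and 26 rose and 4 fell with U0126. With arrays centred on their medians the PD-98059 split was 33 and 7.

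In 3D most genes that rose with the inhibitors were of complexes I and II, which hold 41 and 4 of the 67 genes. PD-98059 raised 22 of 67 (32.8%, against 26.6% of all tested probe sets) and lowered none (against 15.4%; 42% of all passed). U0126 raised 15 (22.4%, against 25.4%) and lowered 3 (4.48% against 23.8%; 49.3% of all passed). The share that rose with U0126 was slightly below that of all tested probe sets. The medians with PD-98059 and U0126 were 0.16 and -0.01 beside 0.05 and -0.0005 for all. Of the genes that rose with PD-98059 18 were of complex I, 3 of complex II and 1 of complex IV, and of those that rose with U0126 11 were of complex I, 3 of complex II and 1 of complex V. No gene of complex III passed with either compound.

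NDUFAF3 again rose most, by 1.14 ± 0.107 with PD-98059 and 1.13 ± 0.107 with U0126 (limma adjusted p = 2.86e-09 and 2.19e-09). Its arrays were 8.70, 8.57 and 8.65 and 8.56, 8.68 and 8.66, against 7.36 to 7.67 with HGF alone. All 6 were above the 3D controls, whose highest was 8.48. CYC1 stayed at 11.68, 11.80 and 11.87 with PD-98059 and at 11.55, 11.29 and 11.64 with U0126, and it did not pass against HGF alone in 3D. None of these arrays came near the 3D control range of 9.78 to 10.19. NDUFAF7 was likewise at 11.25, 11.28 and 11.26 and at 11.07, 10.85 and 11.09, above its 3D controls of 10.09 to 10.23, and did not pass either.

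SDHA rose by 0.44 ± 0.075 with PD-98059 and by 0.23 ± 0.075 with U0126, the second a call lost in 4 alternatives, with adjusted p up to 0.0826. NDUFV1 (0.44 ± 0.067 and 0.43 ± 0.067) and NDUFA3 (0.50 ± 0.112 and 0.46 ± 0.112) rose with both. NDUFB5 rose with PD-98059 by 0.52 ± 0.109, and NDUFB10 by 0.58 ± 0.099. NDUFS8 rose by 0.69 ± 0.160 with PD-98059, and by 0.40 without 3D HGF replicates 1 and 4, the lowest of the HGF arrays at 9.29 and 9.66.

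In complex V, U0126 moved 2 subunits of the same head and stalk in opposite directions. ATP5F1C, the gamma subunit, rose by 0.73 ± 0.171 (limma adjusted p = 0.000911), from 13.04, 12.85, 13.10 and 13.48 with HGF to 13.90, 13.68 and 13.96. ATP5F1D, the delta subunit, fell by 0.50 (SE 0.102, limma adjusted p = 0.000201), from 9.94, 10.11, 9.996 and 9.68 to 9.52, 9.27 and 9.51. Neither pair of groups overlapped. NDUFAB1 (-0.32) and ATP5MC1 (-0.25) passed as lower too, and were lost in 3 and 8 alternatives.

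The U0126 split in 3D depended on single arrays and on scaling. It was 11 higher and 18 lower with arrays centred on their medians, 13 and 12 with array weights, 10 and 10 without 3D HGF replicates 1 and 4, 13 and 10 without 3D HGF replicate 4 and 11 and 8 without 3D HGF+U0126 replicate 3. The PD-98059 split was 15 and 2 with centred arrays, and 11 genes rose when the PD-98059 and HGF arrays were fitted alone.

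PD-98059, a flavone, and U0126, a compound of a different structure, were set side by side in each culture, a pair of comparisons with p-values adjusted over all probe sets in each. Whether the doses match is not known from the sources used here. In 2D no gene of the set differed between them (0 of 67, against 1.62% of all tested probe sets), in any alternative run with limma, and 2 had an unadjusted p under 0.05. The 95% intervals of the differences ran from -0.54 to 0.85 over the 67 genes, with a median half-width of 0.21, and a p that misses the threshold does not show that the compounds act alike. In 3D none was higher with U0126 (against 2.99%) and 6 were lower (8.96% against 8.82%), near the share of all tested probe sets. ATP5F1D was lower with U0126 by 0.56 on the log2 scale, at 9.52, 9.27 and 9.51 against 9.97, 10.01 and 10.02 with PD-98059. Its groups were apart, and this fall of 0.56 (SE 0.109, limma adjusted p = 0.00113) was the one that passed at every alternative other than the 2-fold threshold. The others were NDUFAB1 (-0.38 ± 0.118), NDUFS7 (-0.37 ± 0.111), UQCRC1 (-0.35 ± 0.106), UQCRQ (-0.33 ± 0.105) and UQCR10 (-0.32 ± 0.102). The count was 1 after leaving out any of 3D HGF+PD-98059 replicates 2 and 3 and 3D HGF+U0126 replicates 1 and 2, and 9 without 3D HGF+U0126 replicate 3.

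**Figure D5:**
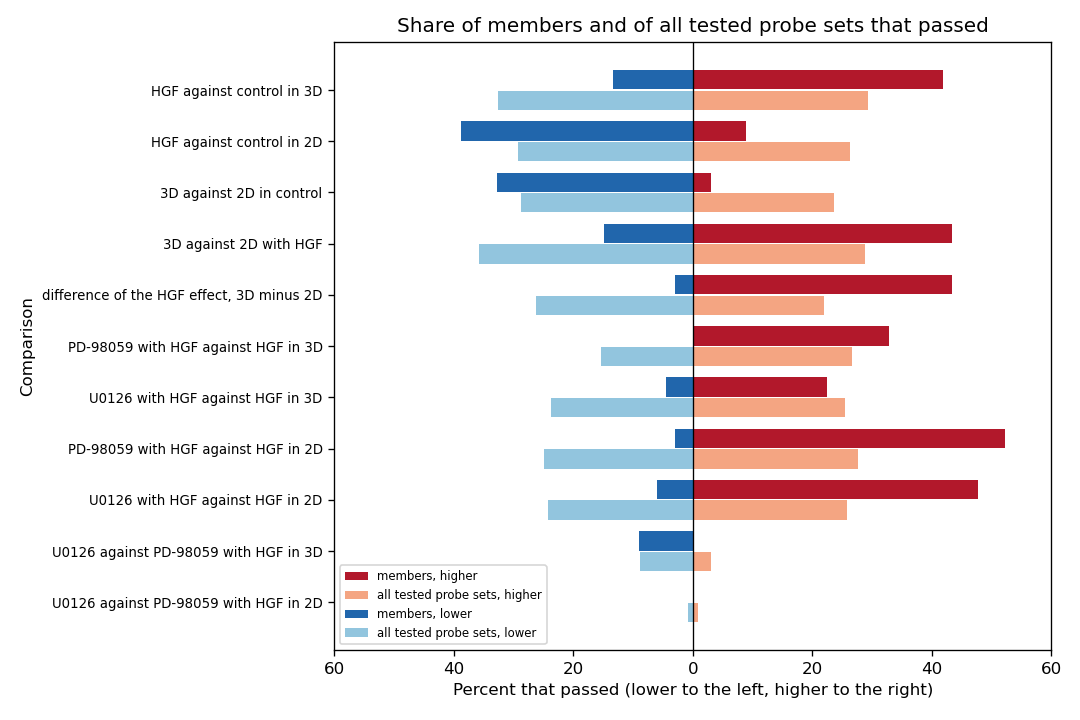
Percent of the 67 genes (dark bars) and of all 16571 tested probe sets (light bars) that passed in each of 11 comparisons, lower to the left and higher to the right. The dark bars lean right for HGF in 3D (41.8% and 13.4%) and left for HGF in 2D (8.96% and 38.8%), and in both inhibitor comparisons in 2D they lean right further than in 3D.

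Other genes of the pathway were taken from lists. Of 28 tested genes for assembly of the complexes and delivery of copper or haem to them, 12 rose (42.9%, against 29.4% of all tested probe sets) and 7 fell (25% against 32.6%) with HGF in 3D. In 2D 6 rose and 6 fell (21.4% each, against 26.3% and 29.2%), below the shares of all tested probe sets. The difference of the HGF effect passed for 12 upward (42.9% against 22%) and 3 downward (10.7% against 26.3%). FOXRED1 (1.16 ± 0.11) and COX18 (1.03 ± 0.09), assembly factors of complexes I and IV, rose in 3D, and NUBPL, which delivers iron-sulfur clusters to complex I, fell (-1.04 ± 0.22). COX11, a copper chaperone, fell with HGF in both cultures (-0.84 ± 0.18 in 3D and -1.29 ± 0.18 in 2D). COX17, the copper carrier upstream of it, fell in 2D (-0.95 ± 0.14) and rose there with PD-98059 (0.97 ± 0.14) and U0126 (1.21 ± 0.16).

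Of 23 tested genes of the tricarboxylic acid cycle and of pyruvate entry, 10 rose (43.5%, against 29.4% of all tested probe sets) and 8 fell (34.8% against 32.6%) with HGF in 3D. In 2D 6 rose (26.1% against 26.3%) and 3 fell (13% against 29.2%). The share that fell in 3D and the share that rose in 2D were near those of all tested probe sets. The list also held CYCS and regulators of pyruvate dehydrogenase, so the rises of CYCS and PDK4 given below are among the 10. MPC1, a subunit of the carrier that brings pyruvate into mitochondria, fell by 3.17 in 2D (SE 0.11, limma adjusted p = 8.24e-18) and by 0.93 in 3D. It rose in 2D with PD-98059 (2.73 ± 0.11) and U0126 (2.88 ± 0.12). The kinases that switch off pyruvate dehydrogenase moved apart with HGF in 3D, where PDK4 rose by 2.91 ± 0.15 and PDK1 fell by 2.04 (SE 0.11). CS, citrate synthase, rose in 3D (2.48 ± 0.39) and was lower in 3D than in 2D in the controls (-1.86 ± 0.39). CYCS, cytochrome c itself, rose with HGF in 3D (1.09 ± 0.11), as CYC1, its partner in complex III, did.

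Of 17 tested genes of mitochondrial biogenesis and transcription, 11 rose (64.7%, against 29.4% of all tested probe sets) and none fell (against 32.6%) with HGF in 3D. In 2D 8 rose (47.1% against 26.3%) and 1 fell (5.88% against 29.2%). Their median difference in 3D was 0.45, beside 0.13 for the oxidative phosphorylation genes. The list of 27 names was chosen with earlier results of these data known and is mixed. It also held MYC, HIF1A, YY1 and the import and pore genes of the TOMM, TIMM and VDAC families. TOMM40 (2.20 ± 0.18), the import pore, PPRC1 (1.80 ± 0.12), a coactivator of nuclear respiratory genes, and TFAM (1.59 ± 0.36), which packages mitochondrial DNA, rose in 3D. With U0126 added in 3D none rose (against 25.4%) and 8 fell (47.1% against 23.8%), among them PPRC1 (-1.44 ± 0.13) and TOMM40 (-1.40 ± 0.20). With PD-98059 in 3D 2 rose (11.8% against 26.6%) and 5 fell (29.4% against 15.4%). In 2D 2 rose and 4 fell with PD-98059 (11.8% and 23.5%, against 27.6% and 24.9%). With U0126 in 2D 2 rose and 6 fell (11.8% and 35.3%, against 25.8% and 24.3%). 

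A gene's probe sets did not always give the same answer. Of the 67 genes 39 had other tested probe sets, 54 in all. For HGF in 3D 27 of these other probe sets passed in the same direction as the one used and 1, for NDUFB6, passed in the opposite direction. For HGF in 2D it was 14 against 2, for NDUFC1 and NDUFS1, and for U0126 in 2D 16 against 1, for NDUFC1. The probe sets used were 37 of a kind whose suffix marks probes shared by several transcripts (_s_at), 7 shared within a gene (_a_at) and 23 without a suffix, so some signals may include close relatives of a gene.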

How the data were processed

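Total RNA was hybridised to 29 Affymetrix canine arrays. The authors deposited log2 values per probe set; per the submitters' processing notes MAS5, GCRMA, Affymetrix Expression Console 1.1 and Partek 6.6 were used, with no role or order given. Each column carries a sample's identifier, and the sample's title gave its group. The deposited values were not normalized again. Of 43035 probe sets, those at 5 or more in at least 3 arrays were tested, without 111 control probe sets, with limma 3.58.1 in R 4.3.3: lmFit on 8 group means over all 29 arrays, eBayes with a trend, Benjamini-Hochberg over 16571 probe sets in each of 11 comparisons, threshold 0.05. The model was also run on simulated data with independent noise for each probe set. The changes put in were larger than most differences of the set, so that run says nothing about small differences.

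Gene names come from the platform annotation; 65 of 67 identifiers were found in RefSeq's gene table (UU_Cfam_GSD assembly), from which no positions were taken. Genes and lists were chosen with earlier results of these data known. The rule names genes that passed without overlap of arrays, the 10 largest each way for HGF and for the controls and 5 otherwise, with a fixed set (SDHA to SDHD, CYC1, core subunits of each complex), the extremes of each complex and up to 3 list genes each way; not all are printed. Genes named among lists of calls outside it were chosen after their values were seen. Alternatives were no filter, a level of 6, no trend, compared groups alone, quantile normalization, median centring, array weights, a replicate block, the RNA-quality index as covariate, a 2-fold threshold, averaged probe sets, each array left out, and 3D HGF replicates 1 and 4 left out. The number of arrays limits precision. Sequences were not used here.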

Additional observations from a re-analysis of the deposited data

Results flagged for a closer look

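Single arrays stood apart from the rest of their group in 6 of 115 groups of 4 arrays examined over 23 genes of the set, where chance gives about 1 in 20. CYC1 was highest in 2D control replicate 4, at 10.09 against 9.93 to 9.95 in the others. UQCRFS1 was highest in 2D control replicate 1, at 14.57 against 14.33 to 14.37. NDUFA3 was highest in 2D control replicate 4, at 11.52 against 11.29 to 11.32, and in 2D HGF replicate 3, at 11.50 against 11.18 to 11.23. SDHC was highest in 3D HGF replicate 1, at 12.67 against 12.13 to 12.15, the array of its group farthest from the group mean over all probe sets. SDHD was lowest in 2D HGF+PD-98059 replicate 2, at 8.19 against 8.42 to 8.45.

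The HGF effect differed between cultures by limma's test of the difference, 3D minus 2D, in 13 of these genes. Some of them were named because they passed, so this count is not set against a share. Over all 67 genes 31 passed (46.3%), near the 48.3% of all tested probe sets. The difference was 2.04 for CYC1, 1.36 for NDUFAF7, 1.09 for NDUFAF1, 0.93 for NDUFS6, 0.85 for NDUFB5, 0.67 for SDHB, 0.65 for ATP5F1D, 0.63 for NDUFA11, 0.51 for UQCRFS1, 0.51 for ATP5MC1 and 0.48 for UQCRC1. It was -0.39 for NDUFA3 and -0.25 for SDHA.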

How the results depend on the processing

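Of 282 calls of genes of the set, 180 passed in every alternative other than the 2-fold threshold and 102 were lost in at least 1. With a 2-fold threshold the counts were 2 for HGF in 3D, 1 for HGF in 2D, 0 for the controls, 3 for 3D against 2D with HGF, 3 for the difference of the HGF effect, 1 for PD-98059 and 1 for U0126 in 3D, 2 for each in 2D, and 0 between inhibitors in 3D. With the compared groups alone, which leaves fewer arrays, PD-98059 in 3D gave 11, U0126 in 3D gave 9 and the inhibitors against each other in 3D gave 2. The last gave 23 with array weights, 1 without the filter, 3 after quantile normalization and 10 with the RNA-quality covariate, and U0126 in 3D gave 29 with median centring; the cause was not tested. Leaving out 1 array gave 32 to 40 for HGF in 3D, 25 to 31 for HGF in 2D, 20 to 24 for the controls, 34 to 38 for 3D against 2D with HGF, 27 to 32 for the difference, 16 to 23 and 14 to 23 for PD-98059 and U0126 in 3D, 33 to 41 and 26 to 32 in 2D, and 1 to 9 and 0 between them in 3D and 2D. With the replicate number as a block the counts were 38, 31, 25, 39 and 32 for the first 5, 23 and 20 for PD-98059 and U0126 in 3D, 39 and 32 in 2D, and 7 and 0 between them. Same-numbered arrays were not treated as pairs: of 35 such pairs 13 had a correlation of deviations over 0.1, and in 0 of 10 comparisons all did. The correlations ran from -0.30 to 0.41, and with so few arrays per group they cannot show that pairing is absent. With the probe sets of a gene averaged NDUFC1 went to -0.052 for HGF in 2D and to 0.062 for U0126 in 2D, and PDHA1 to -0.14 for 3D against 2D in control; the cause was not tested. Median centring moved the median of all tested probe sets by 0.10 for HGF in 3D, 0.12 for 3D against 2D with HGF and -0.13 for PD-98059 in 3D. Relative to that median the set's median was 0.13 higher for HGF in 3D before and after centring, and 0.076 after quantile normalization.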
